A study of Mus musculus with 7 samples.

Results

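Interferon-inducible GTPases were examined in cultured muscle stem cells (MuSCs) from WT and Jag2sm mice as 10 genes of the GBP, IRG and Mx families, of 56748 genes in the count files. The 3 GBP genes were Gbp2, Gbp3 and Gbp7, the 5 IRG genes were Irgm1, Irgm2, Igtp, Iigp1 and Ifi47, and the 2 Mx genes were Mx1 and Mx2. They were taken as the rows whose Ensembl identifier maps to these symbols, and the symbols themselves were chosen by their measured counts in the same libraries, WT against Jag2sm. Their difference between the genotypes is therefore given as a description, without a test of the families and as support for nothing.

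The 7 libraries were Nanopore direct cDNA libraries of total RNA, 3 from WT MuSCs and 4 from MuSCs of mice homozygous for Jag2sm, a hypomorphic allele of the NOTCH ligand Jag2 with a missense change in its first EGF repeat. The samples' genotype tag calls the Jag2sm mice Jag2-/-, although the allele is still transcribed. The cells came from hindlimb muscles of adult mice, were depleted of CD31+, CD45+ and Sca1+ cells and enriched for Integrin α7 on magnetic columns, and were kept in growth medium with serum and bFGF. It is not stated whether replicates came from separate animals or cultures, so p-values measure the spread between these samples, which may be technical.

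Total gene counts ran from 187834 in WT replicate 1 to 1937581 in Jag2sm replicate 3. Of the aligned reads of WT replicate 1, 45.1% fell outside every annotated gene, a share that was 20.8% to 25.7% elsewhere. Reads that did not align made up 50.8%, 46.7% and 46.0% of Jag2sm replicates 1, 2 and 4, but 2.44% to 3.24% of the WT libraries and 3.07% of Jag2sm replicate 3. Jag2 was measured at 80.7, 114 and 116 CPM (read counts scaled to a common library size, with TMM factors) in WT and at 42.4, 78.8, 71.9 and 77.4 CPM in Jag2sm. Every Jag2sm library was below every WT library, but the log2 fold change of -0.64 ± 0.24 (SE) had an adjusted p of 0.166 in edgeR's quasi-likelihood test. A missense allele leaves its transcript in place, so this level does not check the labels.

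Interferons bind receptors whose kinases activate transcription factors, which enter the nucleus and switch on many genes through the ISRE and GAS elements of their promoters. GBPs and IRGs are among the most strongly induced of these: they load onto the membranes around intracellular bacteria and parasites, and within the IRG family the Irgm proteins and Igtp sit on the cell's own membranes and hold the effector members in check. Mx proteins are dynamin-like GTPases that block the replication of viruses. Muscle cells carry interferon receptors and are not professional immune cells.

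The promoters of the members are shown because all 3 families are known as interferon targets and because the choice of members did not use their sequence. RefSeq promoter windows, of 250 bases before to 50 after each annotated start in build GRCm38.p6, were on hand for 7 members, Gbp2, Gbp3 (2 windows), Gbp7, Irgm1, Irgm2, Igtp and Ifi47. Iigp1, Mx1 and Mx2 had no entry. Each of the 8 windows matched 1 site of GRCm39 exactly, and the positions given are those. The stretches of 60 bases below read 5′ to 3′ on the gene's strand, with every match to GAAANNGAAA, the core of the ISRE, on either strand in capitals.
Gbp2: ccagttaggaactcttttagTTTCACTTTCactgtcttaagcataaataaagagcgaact
Gbp3: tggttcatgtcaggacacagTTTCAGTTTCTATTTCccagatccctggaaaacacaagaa
Gbp7: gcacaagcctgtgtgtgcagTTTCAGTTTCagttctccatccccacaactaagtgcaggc
Irgm1: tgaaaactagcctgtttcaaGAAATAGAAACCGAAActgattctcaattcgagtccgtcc
Irgm2: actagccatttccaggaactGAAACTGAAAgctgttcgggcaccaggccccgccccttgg
Igtp: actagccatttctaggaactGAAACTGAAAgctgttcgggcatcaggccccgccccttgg

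The stretches lie at chr3:142326345-142326404 (Gbp2, plus strand), chr3:142265740-142265799 (Gbp3, plus), chr3:142236024-142236083 (Gbp7, plus), chr11:48762238-48762297 (Irgm1, minus), chr11:58105719-58105778 (Irgm2, plus) and chr11:58090328-58090387 (Igtp, plus) of GRCm39. The ISRE core was found in 6 of the 7 members with a window, and in 3.99% of all 27025 genes with promoter windows of the same length. In Gbp3 and Irgm1, 2 overlapping matches stood in a row, starting 45 and 39 bases before the start of Gbp3 and 30 and 24 bases before that of Irgm1. Single matches began 59 bases before the start in Gbp2, 53 in Gbp7, 64 in Irgm2 and 34 in Igtp. In all 6 genes the core thus lay within 64 bases of the start. The window of Ifi47 and the second window of Gbp3 did not hold these letters.

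The GAS core, TTCNNNGAA, which reads the same on both strands, was found in Gbp7, Igtp and Irgm2, and in 9.55% of all genes with a window. It began 106 and 87 bases before the start of Gbp7, 45 before that of Igtp and 75 before that of Irgm2. In Igtp and Irgm2 the GAS core overlapped no ISRE match and stood just upstream of it. The promoters of these neighbouring genes were near copies, with 93.6% of 264 aligned bases identical. Of 10 other genes of the families with a window outside chromosome 18, 7 held the ISRE core, among them Tgtp2, Gbp5 and Gbp2b. A match is a description of the letters and not a measured binding site.

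**Figure D1:**
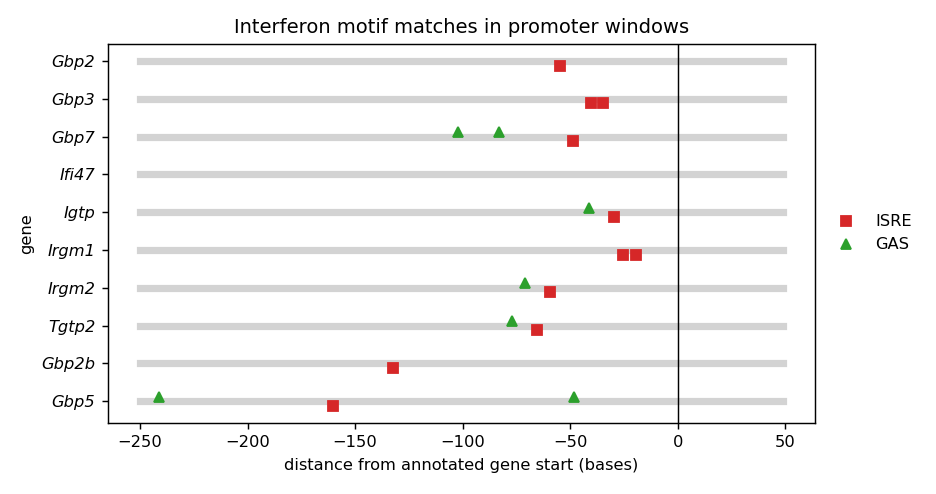
Matches to the ISRE core (red squares) and the GAS core (green triangles) in RefSeq promoter windows of 7 members and 3 other family genes, against the distance in bases from the annotated start (vertical line). Grey bars span each window, from 250 bases before to 50 after the start. For Gbp3 only the window with a match is marked. The ISRE matches of the members lie close to the start, while Ifi47 has none.

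The members were sparsely read. In the 3 WT libraries 4, 6 and 5 of the 10 had any read, and Gbp2, Gbp7, Mx1 and Mx2 were at 0 in all 3. In Jag2sm, reads were found for 6, 9, 5 and 10 of the 10 in replicates 1 to 4. A count of 0 allows a level of up to 17.3 CPM in WT replicate 1, and of up to 1.48 to 4.24 CPM in the other libraries, taking 3 counts as the limit. These limits, and all intervals of counts below, cover counting error only.

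Replicates 2 and 4 of Jag2sm stood above the rest. Replicate 2 was the highest of the 7 libraries for 9 members, and replicates 2 and 4 were the highest pair for 8 of them. Summed over the 10 genes, 87.2% of all Jag2sm reads came from these libraries. Over all genes, replicates 2 and 4 held 1421058 and 1223863 counts, against 671660 and 1937581 in replicates 1 and 3. Replicate 1 was above every WT library for 4 members and replicate 3 for 1, Irgm1. Of the 4, Mx2 rested on 1 read and Ifi47 on 3, and both were at 0 in WT replicate 1. A 0 there allows up to 17.3 CPM. The share over all genes was not taken for such counts of members by library, so nothing is read from them. In bulk RNA, fewer expressing cells and less RNA per cell cannot be told apart.

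**Figure D2:**
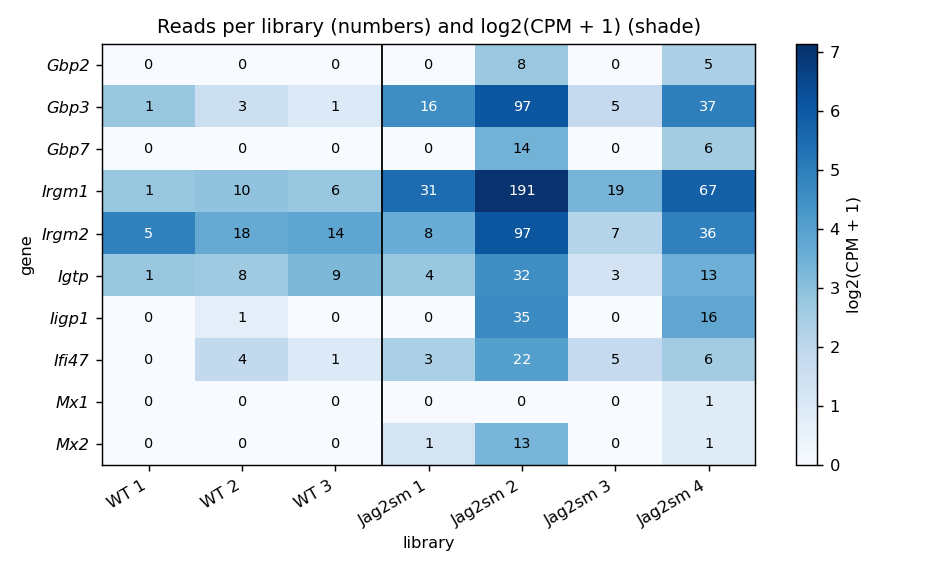
Reads of the 10 members in each library. Rows are genes, columns are libraries with WT left of the line, the number in a cell is the read count and the shade is log2(CPM + 1). Most of the dark cells fall in Jag2sm replicates 2 and 4, and for Gbp3 and Irgm1 also in replicate 1. Irgm2 is also dark in WT replicate 1, at 28.8 CPM from 5 reads. Jag2sm replicate 3 has no cell above 9.36 CPM.

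The 3 GBP genes lie together on chromosome 3 of GRCm39. Gbp3 (ENSMUSG00000028268.15, chr3:142265731-142278979, plus strand) had 1, 3 and 1 reads in WT, or 5.76, 1.94 and 0.948 CPM. It had 16, 97, 5 and 37 reads in Jag2sm replicates 1 to 4, or 22.6, 67.0, 2.46 and 30.2 CPM. Replicates 1, 2 and 4 were above all WT libraries, and replicate 3 lay within the WT range. The fitted log2 fold change was 3.98 ± 1.17 (SE), with an adjusted p of 0.0737 in edgeR over 9489 genes. It missed the threshold in limma-voom as well (adjusted p = 0.475) and passed it in DESeq2 (adjusted p = 0.00687).

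Gbp2 (ENSMUSG00000028270.13, chr3:142326349-142343779, plus strand), which is known to coat vacuoles that hold parasites, was read only in Jag2sm replicates 2 and 4, with 8 and 5 reads. Gbp7 (ENSMUSG00000040253.16, chr3:142236044-142255910, plus strand), known to act in the defence of macrophages against bacteria, had 14 and 6 reads in these libraries. Both genes were thus at 0 in the other 5 libraries. Against a floor of 3 counts over the WT group, the summed Jag2sm counts were 2.22-fold higher for Gbp2 and 3.42-fold higher for Gbp7. Such folds leave out the counting error of the Jag2sm reads and are not lower bounds. At 5.53 and 4.08 CPM, the levels of Gbp2 in replicates 2 and 4 were close to the 4.24 CPM that a 0 allows in replicate 1, so replicate 1 was not distinguishable from them at this depth. Exons of Gbp7 overlap those of Gm43802 on the same strand, and its counts are to that extent uncertain.

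The summed GBP level was 5.76, 1.94 and 0.948 CPM in WT and 22.6, 82.2, 2.46 and 39.1 CPM in Jag2sm. The mean was 2.88 ± 2.54 (SD, n = 3) in WT and 36.6 ± 33.9 (SD, n = 4) in Jag2sm, so the SD of Jag2sm was nearly as large as its mean. Of the GBP sum in Jag2sm, Gbp3 alone made the whole in replicates 1 and 3.

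Among the IRG genes, Irgm1, Irgm2 and Igtp encode the regulators that guard host membranes. Irgm1 (ENSMUSG00000046879.8, chr11:48752795-48763164, minus strand), needed by macrophages for resistance to several bacteria, had 1, 10 and 6 reads in WT, or 5.76, 6.46 and 5.69 CPM. It had 31, 191, 19 and 67 reads in Jag2sm, or 43.8, 132, 9.36 and 54.6 CPM. It was the only member whose groups did not overlap, 1 of 3 tested members, where 10.3% of all tested genes had every Jag2sm library above every WT library. The gap was narrow, since the lowest Jag2sm value rested on 19 reads and the highest WT value on 10. The log2 fold change was 3.28 ± 0.87 (SE), with an adjusted p of 0.0518 in edgeR and of 0.00140 in DESeq2.

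Irgm2 (ENSMUSG00000069874.8, chr11:58090444-58113615, plus strand), which acts at the Golgi apparatus, had 5, 18 and 14 reads in WT and 8, 97, 7 and 36 in Jag2sm. In CPM these were 28.8, 11.6 and 13.3 against 11.3, 67.0, 3.45 and 29.4. Only replicates 2 and 4 were above WT, replicate 4 by a narrow margin over WT replicate 1, and replicate 3 was the lowest of the 7 libraries. The log2 fold change was 0.98 ± 0.84 (SE), with an adjusted p of 0.575 in edgeR, so the spread between libraries was about as large as the difference.

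Igtp (ENSMUSG00000078853.9, chr11:58089840-58098417, plus strand), a regulator found at the endoplasmic reticulum, had 1, 8 and 9 reads in WT and 4, 32, 3 and 13 in Jag2sm, or 5.76, 5.17 and 8.54 CPM against 5.66, 22.1, 1.48 and 10.6 CPM. The pattern was that of Irgm2, with replicates 2 and 4 highest and replicate 3 lowest. The log2 ratio of the summed counts was 0.57, with a 95% exact binomial (Clopper-Pearson) interval of -0.23 to 1.43 that includes no difference. Exons of Igtp and Irgm2 overlap on the same strand, so reads may have been split between them or set aside as ambiguous.

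Iigp1 and Ifi47 encode effector IRGs, which load onto and disrupt the vacuoles of parasites. Iigp1 (ENSMUSG00000054072.13, chromosome 18) had 1 read in WT, in replicate 2, and 0, 35, 0 and 16 reads in Jag2sm. In CPM, replicates 2 and 4 held 24.2 and 13.0 and replicates 1 and 3 held none, with 4.24 and 1.48 CPM as the limits of a 0. Those limits are below the level of replicate 4, so for this gene the Jag2sm libraries differed among themselves by more than counting error. The log2 ratio of the summed counts was 4.71, with an interval of 2.17 to 10.04. Ifi47 (ENSMUSG00000078920.4, chr11:48967412-48987813, plus strand) had 0, 4 and 1 reads in WT and 3, 22, 5 and 6 in Jag2sm, a log2 ratio of 1.89 with an interval of 0.53 to 3.59. Of its Jag2sm libraries replicate 2 was the highest, at 15.2 CPM, and the other 3 lay between 2.46 and 4.89 CPM.

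Summed over the 5 IRG genes, WT libraries stood at 40.4, 26.5 and 28.5 CPM and Jag2sm libraries at 65.0, 261, 16.7 and 112 CPM. The mean was 31.8 ± 7.50 (SD, n = 3) in WT and 114 ± 105 (SD, n = 4) in Jag2sm. Replicate 3 lay below all 3 WT libraries in this sum, because of Irgm2 and Igtp, and replicate 1 lay above them through Irgm1.

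Exons of Ifi47 overlap those of Or2v1 on the same strand, and those of Irgm1 overlap a gene on the other strand, from which reads cannot be told apart if strand was not used in counting.

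The 2 Mx genes lie on chromosome 16. Mx1 (ENSMUSG00000000386.18, chr16:97248235-97264107, minus strand), known to act against influenza-like viruses, had a single read in all 7 libraries, in Jag2sm replicate 4. This is no measurable level, and no difference could be seen at this depth. Mx2 (ENSMUSG00000023341.17, chr16:97336508-97362100, plus strand), known to act against vesicular stomatitis virus, had 0 reads in WT and 1, 13, 0 and 1 in Jag2sm. Its summed counts in Jag2sm were 2.56-fold above a floor of 3 counts over the WT group, and 13 of the 15 reads came from replicate 2.

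**Figure D3:**
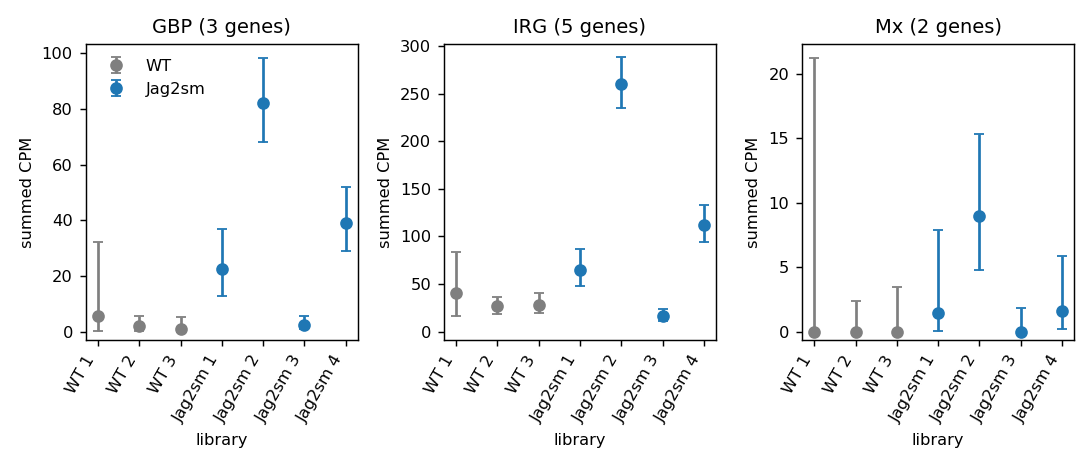
Summed CPM of the GBP, IRG and Mx members in each library, WT in grey and Jag2sm in blue. Points are single libraries and bars are 95% exact Poisson intervals of the counts, which cover counting error only. In the GBP and IRG panels, Jag2sm replicates 1, 2 and 4 stand above the WT points and replicate 3 does not. The wide bar of WT replicate 1 in each panel reflects its few reads.

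Only Gbp3, Irgm1 and Irgm2 passed the filter on low counts, and Gbp3 and Irgm1 did so through the Jag2sm libraries in which they were high, so that their fitted values depend on the filter as well. None of the 3 was called in either direction in edgeR, where 1.42% of 9489 tested genes were called higher and 4.84% lower in Jag2sm. With an unadjusted p under 0.05 in edgeR, 2 of the 3 would have been counted, as would 1873 of all 9489 tested genes. DESeq2 called 2 and limma-voom called 0. Since the members were chosen on this comparison, nothing is read from these counts. The median log2 fold change of all tested genes was 0.05.

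The labels give a batch number that equals the replicate number, so that WT and Jag2sm replicates 1, 2 and 3 share a number and Jag2sm replicate 4 stands alone. What the number stands for is not stated, and a pairing by it was not visible in the counts. With this number as a replicate block, which leaves replicate 4 of Jag2sm without a partner and so without weight, Gbp3 (log2 fold change 4.14, adjusted p = 0.00932) and Irgm1 (3.16, adjusted p = 0.0248) passed the threshold in edgeR. Irgm2 did not. Within single batches, the log2 ratio of Jag2sm to WT counts for Irgm1 was 2.93 in batch 1 (interval 0.34 to 8.28), 4.35 in batch 2 (3.44 to 5.44) and 0.72 in batch 3 (-0.66 to 2.33). For Gbp3 the same ratios were 1.97 (-0.71 to 7.36), 5.11 (3.52 to 7.41) and 1.38 (-1.78 to 6.94). Both genes were higher in Jag2sm in 3 of 3 batches, with an interval clear of 0 in batches 1 and 2 for Irgm1 and in batch 2 for Gbp3.

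Irgm2 and Igtp did not keep 1 direction across batches. The log2 ratio for Irgm2 was -1.35 (-3.14 to 0.61) in batch 1, 2.53 (1.79 to 3.34) in batch 2 and -1.94 (-3.49 to -0.54) in batch 3. For Igtp it was -0.03 (-3.36 to 5.59), 2.10 (0.95 to 3.42) and -2.53 (-5.05 to -0.53). Counts of both genes were thus higher in Jag2sm in batch 2 and lower in batch 3, each beyond counting error, in opposite directions.

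Members also differed in which Jag2sm libraries they marked. The log2 ratio of replicate 1 to replicate 4 was -0.32 (-0.98 to 0.32) for Irgm1 and -0.41 (-1.36 to 0.47) for Gbp3, but -1.38 (-2.69 to -0.25) for Irgm2, and Iigp1 had 0 reads against 16. Replicate 2 exceeded replicate 4 by 1.27 (0.86 to 1.70) for Irgm1, 1.15 (0.59 to 1.74) for Gbp3, 1.19 (0.63 to 1.79) for Irgm2 and 1.06 (0.09 to 2.11) for Igtp. For the sparser members it was 0.44 (-1.35 to 2.40) for Gbp2, 0.98 (-0.49 to 2.65) for Gbp7, 0.89 for Iigp1 (an interval from just below 0 to 1.84), 1.64 (0.29 to 3.23) for Ifi47 and 3.46 (0.73 to 8.87) for Mx2, above 0 in each but with wide intervals. Replicate 2 exceeded replicate 3 by 3.82 (3.13 to 4.58) for Irgm1 and 4.77 (3.49 to 6.42) for Gbp3.

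Jag2sm replicate 3, the deepest library and the only one of its genotype with an unaligned share like that of WT, was the only library whose omission changed a call among the members. Without it, Gbp3 (log2 fold change 4.43, adjusted p = 0.00379) and Irgm1 (3.67, adjusted p = 0.00357) were called in edgeR. Then 4 members in place of 1 had groups that did not overlap, but smaller groups separate more easily. The share over all genes was not taken for this setting, so nothing is read from that count. Compared on its own with WT, with the spread taken from the WT libraries, it gave a log2 fold change of 0.63 for Irgm1 (adjusted p = 0.785) and of -1.98 for Irgm2. The part of the unaligned reads in these differences was not tested. Leaving out Jag2sm replicate 2 took Irgm2 from 0.98 to -0.02 and Irgm1 to 2.49, and Gbp3 then no longer passed the filter.

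**Figure D4:**
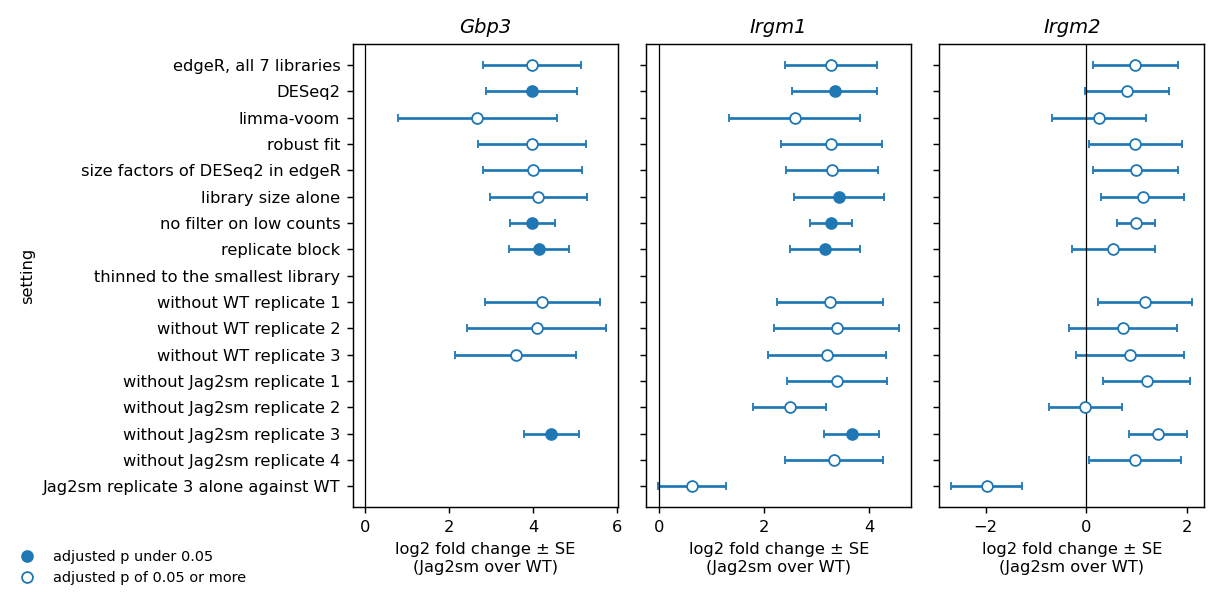
Log2 fold change (Jag2sm over WT) with its SE for the 3 tested members under each setting. Filled points had an adjusted p under 0.05 and open points did not. A missing point means that the gene did not pass the filter on low counts. Gbp3 and Irgm1 stay above 0 where they were fitted and are called in 4 and 5 of the alternatives, while Irgm2 is never called and lies below 0 without Jag2sm replicate 2 and with replicate 3 alone.

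Other genes of the 3 families were followed from a list of 26, of which 23 had a row in the files and 17 had a read. Only Gbp9 and Irgq passed the filter, and 0 were called in edgeR. There 1 had an unadjusted p under 0.05, as had 1873 of all 9489 tested genes. Tgtp2 (ENSMUSG00000078921.4, chr11:48948021-48955033, minus strand), an effector IRG that lies beside the members of its family on chromosome 11, followed the pattern of the members. It had 0 reads in WT and 5, 67, 2 and 24 in Jag2sm, in sum 16.8-fold above a floor of 3 counts over the WT group. It failed the filter of edgeR, and in DESeq2, which was run without that filter, it had an adjusted p of 0.00440.

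Gbp9 and Gbp4, of the GBP cluster on chromosome 5, did not follow the members of chromosome 3. Gbp9 had 17.3, 12.3 and 7.59 CPM in WT and 24.0, 29.0, 38.4 and 17.1 CPM in Jag2sm, with its highest value in replicate 3, where Gbp3 was lowest among the Jag2sm libraries. Its log2 fold change was 1.34 ± 0.39 (SE), with an adjusted p of 0.0692 in edgeR, and of 0.0131 when the filter on low counts was dropped. Gbp4 had 2, 8 and 4 reads in WT and 17, 5, 15 and 3 in Jag2sm, highest in replicates 1 and 3, a log2 ratio of 0.55 with an interval of -0.36 to 1.54. Exons of Gbp4, Gbp8 and Gbp9 overlap on the same strand, so the split of reads between them is uncertain.

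Irgq, a divergent relative of the IRGs, had 34.6, 18.7 and 19.0 CPM in WT and 21.2, 8.98, 12.3 and 12.2 CPM in Jag2sm, a log2 fold change of -0.68 ± 0.36 (SE) with an adjusted p of 0.332 in edgeR. The other 13 genes with a read were sparse. Gbp6, Gbp8, Gbp11, F830016B08Rik, Gm12185, 9930111J21Rik2, Iigp1c, Gbp2b, Tgtp1, Gbp5, Gbp10, Gm12250 and Gm4841 had 1 to 17 reads each over all libraries. Of these, Iigp1c had 0 reads in WT and 0, 4, 1 and 2 in Jag2sm, and Gbp11 had 0, 4 and 3 in WT against 2, 0, 2 and 0. Differences of so few reads were not detectable at this depth.

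**Figure D5:**
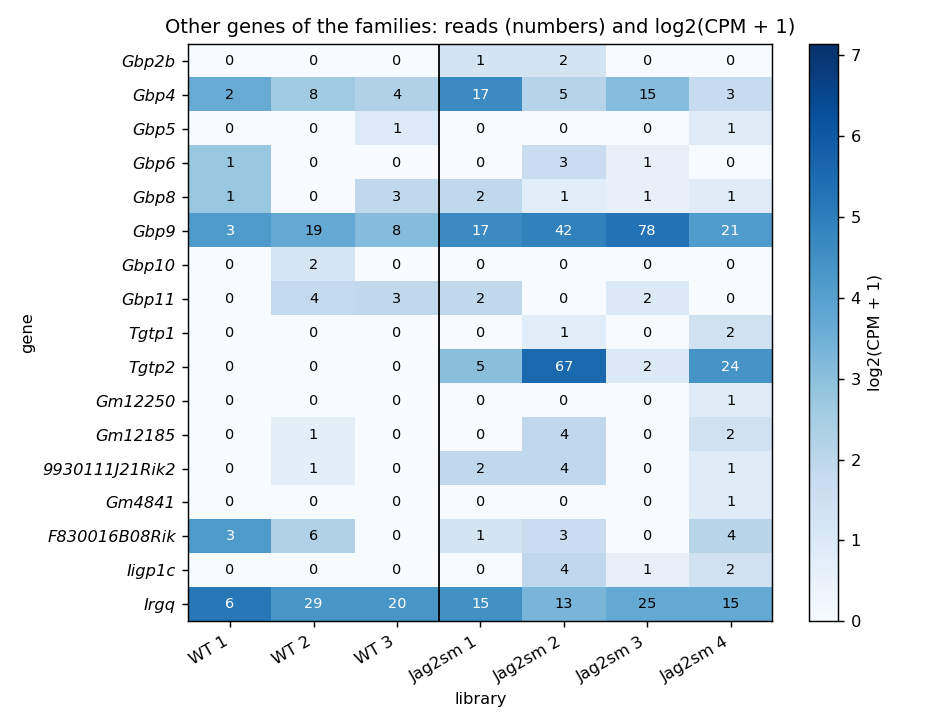
Reads of the 17 other family genes with any read, laid out as for the members, with the read count in each cell and log2(CPM + 1) as the shade. Tgtp2 is at 0 in WT and high in Jag2sm replicates 2 and 4. Gbp9 is darkest in Jag2sm replicate 3, and Irgq is read in every library.

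Of the 16 listed interferon receptors, kinases and transcription factors, 14 were tested, 0 were called lower, and their median log2 fold change was 0.37. Irf7, which drives interferon genes, had 0, 4 and 3 reads in WT and 23, 289, 5 and 86 in Jag2sm. In CPM, Jag2sm replicates 1, 2 and 4 were above every WT library and replicate 3 was within the WT range. Irf7 was not called (log2 fold change 4.88 ± 1.42, SE, adjusted p = 0.0713 in edgeR), and passed with the replicate block (adjusted p = 0.0162).

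Of the 10 listed inflammasome genes, some of which act downstream of GBPs, 4 were tested, 1 was called higher and 0 lower. Gsdmd, which forms pores in the plasma membrane, had 5.76, 4.52 and 1.90 CPM in WT and 22.6, 21.4, 9.85 and 15.5 CPM in Jag2sm. It rose in Jag2sm (log2 fold change 2.20 ± 0.51, SE, adjusted p = 0.0297 in edgeR), and every Jag2sm library was above every WT library, replicate 3 included. The call was lost without Jag2sm replicate 1 or 2 or WT replicate 2 or 3, with adjusted p up to 0.166, and in limma-voom (adjusted p = 0.0806).

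Of the 18 listed autophagy conjugation genes, which help to place these GTPases on vacuoles, 17 were tested. Of these, 0 were called higher and 1 lower, and 6 had a positive log2 fold change, with a median of -0.12. Over all 9489 tested genes, 1.42% were called higher and 4.84% lower, for this as for the other lists. Trim21 was the highest of the list (log2 fold change 3.43 ± 0.97, SE) but was not called (adjusted p = 0.0654 in edgeR). In edgeR 1 gene of the list was called higher without Jag2sm replicate 3, and 1 with no filter on low counts. The gene called lower was Map1lc3a, whose protein is joined to autophagic membranes. It fell from 306, 172 and 180 CPM in WT to 90.5, 73.9, 73.9 and 85.6 CPM in Jag2sm (log2 fold change -1.39 ± 0.24, SE, adjusted p = 0.00908 in edgeR), and stayed called without any 1 library. Its 4 Jag2sm values lay close together, unlike those of the GTPases.

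Of the 14 listed constitutive GTPases of the dynamin superfamily, 11 were tested, 0 were called higher and 1 lower, with a median of -0.21. Mfn2, which fuses mitochondrial outer membranes, fell from 150, 75.0 and 89.1 CPM to 22.6, 42.2, 36.0 and 48.1 CPM (log2 fold change -1.35 ± 0.30, SE, adjusted p = 0.0231 in edgeR). Its call was lost without Jag2sm replicate 2 or WT replicate 3, with adjusted p up to 0.0643. None of the 12 prenylation and CaaX processing enzymes, all tested, was called in edgeR. There 1 of the 12 had an unadjusted p under 0.05, against 1873 of all 9489 tested genes. The median over these 12 was 0.06.

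The tested genes outside the members whose log2 CPM best followed the mean of Gbp3, Irgm1 and Irgm2 over the 7 libraries were Ube2l6 (Pearson r = 0.984), Gnl2 (0.972), Rfx7 (0.967), Parp12 (0.963) and Rtp4 (0.962). They were picked as the highest of all tested genes, and the libraries share depth and batch, so r is a description. Ube2l6, a conjugating enzyme for ISG15, had 12.7, 39.4, 1.48 and 13.0 CPM in Jag2sm against 1.94 to 5.76 in WT. Parp12, an ADP-ribosyltransferase, had 22.6, 59.4, 7.39 and 32.6 CPM against 3.79 to 5.76, and Rtp4, an interferon-inducible membrane protein, had 42.4, 213, 5.42 and 126 CPM against 1.29 to 5.76. In these 3 genes Jag2sm replicates 2, 4 and 1 again stood above replicate 3. Gnl2, a nucleolar GTPase, and Rfx7, a transcription factor, moved over a far narrower span, Gnl2 from 50.3 to 60.1 CPM and Rfx7 from 18.7 to 35.9 CPM.

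The cells expressed the myogenic markers, all 8 of which were tested. Their summed level was 3346 to 5839 CPM in WT and 2165 to 2633 CPM in Jag2sm. Des, the muscle intermediate filament, was called lower (log2 fold change -1.63 ± 0.36, SE, adjusted p = 0.0244 in edgeR). Without Des, the other 7 markers summed to 1239 to 1610 CPM in WT and 1253 to 1638 CPM in Jag2sm, ranges that overlap. Pax7 and Vcam1 had log2 fold changes of 0.80 and 1.03 and were not called. The call of Des was lost without Jag2sm replicate 1 or 2, with adjusted p up to 0.0890, and with the replicate block (adjusted p = 0.0596). Of 10 immune markers, 5 had a read, and Ptprc, Adgre1, Lyz2, Cd3e and Tyrobp were at 0 in every library. Their sum was 5.76 to 25.9 CPM in WT and 4.43 to 14.1 CPM in Jag2sm. Within Jag2sm it was 14.1, 10.4, 4.43 and 6.52 CPM in replicates 1 to 4, highest in replicate 1, where the summed GTPases were highest in replicate 2. Both were lowest in replicate 3. Laptm5 held 57 of the 68 WT reads and 29 of the 42 Jag2sm reads of the sum. It was lower in Jag2sm but not called (log2 fold change -1.74 ± 0.52, SE, adjusted p = 0.0760 in edgeR). The part of the immune sum in the levels of the GTPases was not tested. Of 8 endothelial markers, 6 had a read, with sums of 4.74 to 11.5 CPM in WT and 7.88 to 17.0 CPM in Jag2sm, and Kdr and Esam were at 0 throughout.

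Of the fibro-adipogenic markers, Gsn and Cd34 were highest in Jag2sm replicates 1, 2 and 4, as Gbp3 and Irgm1 were. The sum of the 7 fibro-adipogenic markers, 5 of which had a read, was 46.1 to 86.0 CPM in WT. It was 156, 159 and 185 CPM in Jag2sm replicates 1, 2 and 4, and 69.0 CPM in replicate 3. Nearly all of it came from Gsn, an actin-severing protein that muscle cells also express, and Cd34, while Dpt and Lum were at 0 in every library and Pdgfra had at most 2 reads in any. Dcn had 0, 2 and 1 reads in WT and 0 in every Jag2sm library. Pi16 had 0, 2 and 1 reads in WT and 0, 0, 1 and 0 in Jag2sm. The part of such cells in the levels of the GTPases was not tested.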

How the data were processed

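The authors made Nanopore direct cDNA libraries, used dorado for base calling, minimap2 2.17 for alignment to GRCm39 and HTSeq for counting per gene, per the paper's methods and the submitters' processing notes. Strand setting and annotation release are not given in the sources used here. The deposited counts are raw reads per gene (56748 rows per library), and 5 summary rows per file (no feature, ambiguous, low quality, not aligned and the like) were left out of tests and library sizes. These took 20.8% to 45.1% of aligned reads for no feature alone. A deposited table of the authors' own DESeq2 comparison (fold changes and p-values) was not used.

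Members and lists were chosen with earlier results of these data known. The members were named in full, as were family genes with a read, called genes of the other lists, Jag2 and the 5 genes most correlated with the tested members. Irf7 and Trim21 are named although they were not called, chosen after their values were seen. The result of 1 gene of the interferon receptor, kinase and transcription factor list is not reported here.

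Identifiers were matched without their version to GENCODE M39 (56017 of 56748). Counts were fitted in R 4.3.3 with edgeR 4.0.16 (filterByExpr, minimum count 10 and minimum total 15; TMM; glmQLFit and glmQLFTest; no covariate, as in the study; Benjamini-Hochberg over 9489 genes, threshold 0.05). DESeq2 1.42.0 and limma 3.58.1 were alternatives, as were other size factors, no filter, thinning, the replicate block and leaving out each library. CPM is scaled by the TMM library size, and log2 CPM has a prior count of 2. Count ratios have 95% Clopper-Pearson intervals (SciPy), and a 0 was taken to allow 3 counts. On simulated counts for this comparison (9489 genes, 200 changed), edgeR recovered 97% of changed genes with 5.37% false calls. The changed genes were drawn from well-read genes, with a single common spread between libraries (coefficient of variation 0.263). Most members were read less, and their Jag2sm libraries varied more, so the 97% does not hold for them.

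Same-numbered WT and Jag2sm libraries share the labels' batch number, from which the pairing comes. Their deviations from the group means correlated at 0.0740, 0.0144 and 0.0539 across genes. Differently numbered libraries gave -0.0944 (WT replicate 3 with Jag2sm replicate 1) to 0.0644 (WT replicate 2 with Jag2sm replicate 3). A pairing was therefore not visible at this level, and the block rests on the labels alone. No 2 of the 7 libraries (21 pairs) held identical counts.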

Additional observations from a re-analysis of the deposited data

Results flagged for a closer look

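Within the 4 Jag2sm libraries, 33 sets of values were looked at, and in 7 of them 1 sample stood far from the other 3, where chance alone does so in about 1 of 20 groups of 4. Mx2 was at 8.98 CPM in Jag2sm replicate 2, from 13 reads, against 0 to 1.41 CPM in the other replicates. Gbp8 was at 2.83 CPM in Jag2sm replicate 1, from 2 reads. Mx1, Gbp5, Gm12250 and Gm4841 each stood at 0.815 CPM in Jag2sm replicate 4, which is a single read, and at 0 in the other replicates. A lone read always stands apart in this way, so the rate of 1 in 20 does not apply to these 4 genes.

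The share of reads that did not align was 3.07% in Jag2sm replicate 3, far below the other Jag2sm replicates, and was 50.8%, 46.7% and 46.0% in Jag2sm replicates 1, 2 and 4, above the 2.44% to 3.24% of the WT libraries. The unaligned reads are not part of the gene counts. Gbp3, Irgm1 and Irf7 were highest in the same 3 Jag2sm libraries, and whether the 2 patterns are related was not tested.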

How the results depend on the processing

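Of the 10 members none was called in edgeR with all libraries, with limma-voom, with a robust fit or with DESeq2's size factors in edgeR. DESeq2 called 2 (Gbp3 and Irgm1), the replicate block 2 (the same genes), library size alone 1 (Irgm1), and no filter on low counts 4 (Gbp3, Irgm1, Iigp1 and Gbp7). Leaving out 1 library gave 0 to 2 called members, with 2 only without Jag2sm replicate 3. The median log2 fold change of Gbp3, Irgm1 and Irgm2 was 3.28. On leaving out 1 library it ranged from 1.24 without Jag2sm replicate 2 to 3.67 without Jag2sm replicate 3. It was taken over those of the 3 genes that still passed the filter. Gbp3 did not pass without Jag2sm replicate 1, 2 or 4, so the range mixes sets of genes. With Jag2sm replicate 3 alone the median of Irgm1 and Irgm2 was -0.67, and Irgm2 was at -1.98. Igtp also passed the filter there, at -2.06, but was not part of the median. There Irgm1 lay above WT and Irgm2 and Igtp below, but a single library often lies outside the range of a few others. Irgm2 ranged from -0.016 to 1.44 on leaving out 1 library, below 0 only without Jag2sm replicate 2. Members without overlap were 1 to 4 in number on leaving out 1 library, 2 with library size alone and 0 after thinning to the smallest library, which also left no member tested. The share of all genes without overlap was not taken in these settings, and groups short of a library separate more easily. Called genes over the whole table numbered 594, and 1248 with no filter, 256 after thinning, 221 with Jag2sm replicate 3 alone and 251 (without Jag2sm replicate 2) to 616 (without Jag2sm replicate 3) on leaving out 1 library. Without WT replicate 2 or 3 they were 343 and 341. In the pathway lists, 4 genes were called, against 8 in DESeq2, 2 in limma-voom, 7 with library size alone, 13 with no filter, 2 after thinning, 0 with Jag2sm replicate 3 alone and 1 (without Jag2sm replicate 2 or WT replicate 3) to 8 (without Jag2sm replicate 3) on leaving out 1 library. With no filter the number of genes tested is larger by construction, and the cause of the other differences was not tested. In the lists the replicate block added Irf7 and Irf9 (6 calls) and ended the call of Des, and beside these and the members Gbp3 and Irgm1 it changed no other call printed in the text. WT replicate 1, at 187834 counts, limits what can be said of low levels in WT.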
